A study of Mus musculus with 12 samples.

Results

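Expression of 10 genes of the interleukin-10 (IL-10) and interleukin-12 (IL-12) systems was described in the spleens of C57BL/6 mice. The genes are the cytokine Il10 with its receptor chains Il10ra and Il10rb, the cytokine chains Il12a, Il12b, Il23a, Il27 and Ebi3, and the receptor chains Il12rb1 and Il12rb2. They were chosen by name, and all 10 were found among the 19938 genes of the array, each with 1 probe set. The 12 Affymetrix arrays fall by label into 3 groups of 4 biological replicates. The first group is TLR-deficient and septic, and its sample titles name Trif and MyD88, the adaptors through which Toll-like receptors (TLRs) signal, without giving the alleles. The second is wildtype and septic, and the third is wildtype and untreated, with a title time of 0 h. Septic mice had colon ascendens stent peritonitis (CASP), an operation in which a stent in the gut wall lets gut bacteria leak into the abdomen. All groups share the strain, and the labels give neither the age of the animals nor the time from operation to sampling. No untreated TLR-deficient mice were analysed here, so genotype cannot be separated from sepsis within that genotype.

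IL-10 is the main cytokine by which macrophages, dendritic cells and T cells restrain inflammation. It binds the specific chain Il10ra and the shared chain Il10rb and signals through Jak1, Tyk2 and Stat3. The IL-12 family consists of paired chains: Il12a with Il12b forms IL-12, Il23a with Il12b forms IL-23, and Il27 with Ebi3 forms IL-27. Macrophages and dendritic cells make these chains after sensing microbes. T and natural killer (NK) cells read IL-12 through Il12rb1 and Il12rb2, activate Stat4 and produce interferon-gamma.

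The arrays did not group by label, which bears on every comparison. Over all genes, the closest array by correlation had the same label for 5 of the 12 arrays. The array labelled septic wildtype replicate 2 (titled M10) stood apart, with correlations to the others of 0.765 to 0.809 against 0.956 to 0.991 among the other 11, and with a standard deviation of its log2 values of 1.21 against 1.91 to 2.07. Values are therefore given by label and also by running number in the sample titles, in 3 blocks: M5 to M7 with M16 (septic TLR-deficient replicates 1 to 3 and untreated replicate 4), M8 to M11 (septic TLR-deficient replicate 4 and septic wildtype replicates 1 to 3), and M12 to M15 (septic wildtype replicate 4 and untreated replicates 1 to 3). In these blocks M8, M12 and M16 stand with arrays of another label. Whether the labels are offset against the arrays was not tested, and no array was moved, so each difference between groups below is one between arrays as labelled and would mean something else if they are. The genes of the adaptors named in the titles were read here only by label, which pools M8 with M5 to M7. Read so, they do not settle it, and they were not read array by array. For Myd88 the TLR-deficient minus septic wildtype difference was 0.99 (SE 0.48, adjusted p = 0.590 in limma). Its values overlapped, at 8.62 to 9.64 on TLR-deficient and 6.48 to 9.20 on septic wildtype arrays. For Ticam1, which encodes Trif, the difference was -0.13 (SE 0.20, adjusted p = 0.740 in limma). Probes outside a deleted part would not show a deletion. The title blocks were drawn with earlier results of the same data known, so they order the values and carry no test. The 6 spleen markers measured averaged 8.16 to 8.52 on M5 to M7 and M16, 7.40 on M10 and 9.26 to 9.78 on the other 7 arrays. The lowest value of any of them was 5.23, for the macrophage gene Cd5l on M10, and the iron exporter gene Slc40a1 stood at 7.73 to 9.21 on M5 to M7 and M16 and at 9.86 to 11.69 elsewhere.

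Il10 was the member that varied most. Its log2 values were 7.98, 7.91, 7.71 and 4.18 on the arrays labelled septic TLR-deficient replicates 1 to 4. They were 3.72, 4.88, 4.07 and 5.27 on septic wildtype replicates 1 to 4, and 4.55, 5.03, 4.81 and 7.87 on untreated replicates 1 to 4. Each label thus held low arrays, while the high ones were 3 of the septic TLR-deficient arrays and 1 labelled untreated. In order of the group means, the TLR-deficient arrays averaged 6.94 ± 1.85 (SD, n = 4) for Il10, the untreated arrays 5.56 ± 1.55 (SD, n = 4) and the septic wildtype arrays 4.48 ± 0.72 (SD, n = 4). Neighbours in this order differed by less than the larger of their SDs.

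By title block the same values separated. Il10 lay between 7.71 and 7.98 on M5 to M7 and M16, a range of 0.27, and between 3.72 and 5.27 on the other 8 arrays. The gap between the lowest of the first and the highest of the second was 2.43 log2 units, where 1 unit is a 2-fold difference. In 343 of the 19938 genes (1.72%) these 4 arrays all lay above the other 8, and in 1.85% all lay below, while among the 10 members Il10 alone lay above and none below. Only Cxcl2, a chemokine that recruits neutrophils, had a wider gap among them, and the share of genes with a gap at least as wide as that of Il10 was 0.0100%. Among the other 8 arrays, Il10 was lower on M8, M9 and M11 (3.72 to 4.18) than on M12 to M15 (4.55 to 5.27), with M10 at 4.88 inside the latter range. The standard deviation of Il10 over all arrays, 1.68, exceeded that of 99.8% of genes.

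**Figure D1:**
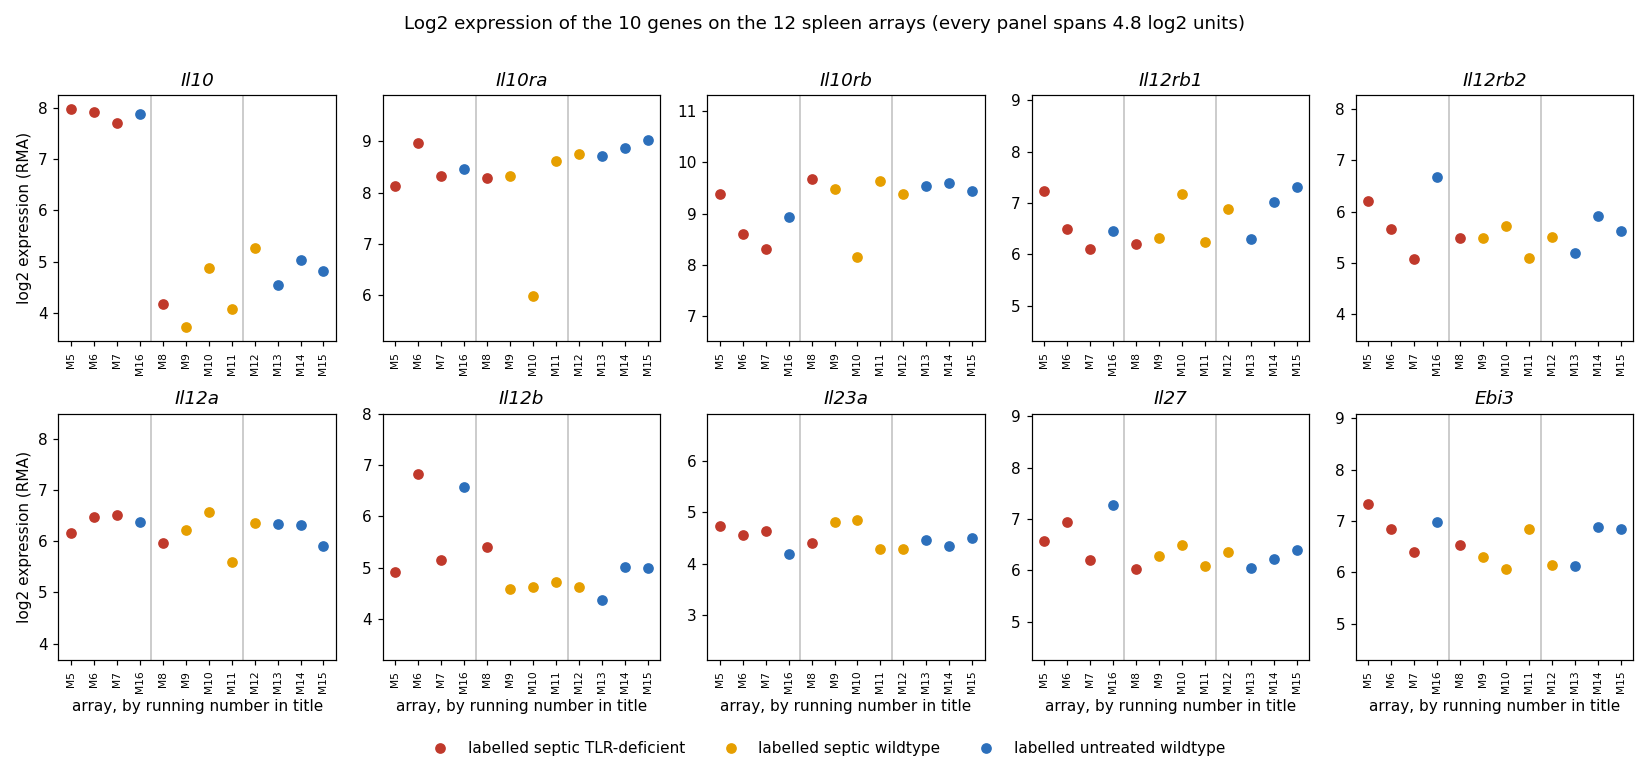
Log2 expression of each of the 10 genes (vertical axis, RMA values) on the 12 arrays (horizontal axis, by running number in the title, with grey lines between title blocks); points are single arrays, coloured by label. Il10 stands between 7.71 and 7.98 on M5, M6, M7 and M16 and at 5.27 or lower on the other 8, Il12b is highest on M6 and M16, and Il10ra is lowest on M10.

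Both receptor chains of IL-10 showed no such separation. Il10ra, the chain that binds IL-10 specifically, stood at 8.14, 8.97, 8.32 and 8.29 in the septic TLR-deficient group (replicates in order), at 8.32, 5.98, 8.61 and 8.75 in the septic wildtype group and at 8.71, 8.87, 9.03 and 8.47 in the untreated group. Its one low value came from M10, and without that array its standard deviation over arrays fell from 0.81 to 0.30. Il10rb, the chain that IL-10 shares with its relatives, stood at 9.38, 8.60, 8.32 and 9.68 on septic TLR-deficient arrays, at 9.48, 8.15, 9.64 and 9.39 on septic wildtype arrays and at 9.54, 9.59, 9.45 and 8.93 on untreated arrays. Apart from M10, the 4 lowest values of Il10rb (8.32 to 9.38) were those of M5 to M7 and M16, the arrays on which Il10 was highest, but the gap to the next array was 0.02. Without M10, 5.07% of all genes had these 4 arrays below all others.

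Among the cytokine chains of the IL-12 family, Il12b varied most. Il12b encodes the chain that IL-12 and IL-23 share. Its log2 values were 4.92, 6.83, 5.15 and 5.40 on septic TLR-deficient replicates 1 to 4, 4.59, 4.62, 4.72 and 4.63 on septic wildtype replicates and 4.37, 5.01, 4.99 and 6.58 on untreated replicates. It was therefore high on M6 and M16 alone, and the remaining 10 arrays lay at or below 5.40, so only part of the block in which Il10 was high had high Il12b. The septic wildtype values spanned little, with an SD of 0.05 (n = 4), against 0.86 and 0.94 on septic TLR-deficient and untreated arrays (n = 4 each). Il12a, the partner that makes IL-12 with it, lay between 5.60 and 6.57 on all arrays, with its highest value on M10 and its lowest on M11. Il23a, the partner in IL-23, lay between 4.19 and 4.86, and 11.8% of genes varied less over the 12 arrays, or 38.6% over the 11 without M10. The files carry no detection call, so a low and even level such as that of Il23a is not shown to lie above background.

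Il27 and Ebi3, the chains of IL-27, were measured at 6.03 to 7.28 and 6.06 to 7.32. Il27 stood at 6.58, 6.95, 6.21 and 6.03 on septic TLR-deficient arrays, at 6.29, 6.50, 6.08 and 6.35 on septic wildtype arrays and at 6.04, 6.22, 6.39 and 7.28 on untreated arrays. Its 2 highest values were on M16 and M6, the arrays highest in Il12b. Ebi3 stood at 7.32, 6.84, 6.40 and 6.53 on septic TLR-deficient arrays, at 6.29, 6.06, 6.85 and 6.15 on septic wildtype arrays and at 6.12, 6.88, 6.85 and 6.97 on untreated arrays. It was highest on M5 and M16 and overlapped between all labels and blocks.

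The start regions of Il12b and Ebi3 are shown because these 2 chains carry the pairing of the family and differ in what their promoters hold. RefSeq sequences before the start of transcription (GRCm38.p6) were at hand for 4 of the 10 members, Il12a, Il12b, Il12rb2 and Ebi3. The 250 bases before the start lie at chr11:44399813-44400062 on the plus strand for Il12b and at chr17:55952373-55952622 on the plus strand for Ebi3, given 5′ to 3′ with motif matches in capitals:
Il12b: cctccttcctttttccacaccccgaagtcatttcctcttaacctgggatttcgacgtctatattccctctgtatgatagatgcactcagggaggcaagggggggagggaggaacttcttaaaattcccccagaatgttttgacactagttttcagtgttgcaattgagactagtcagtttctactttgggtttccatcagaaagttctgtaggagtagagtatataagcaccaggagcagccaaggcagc
Ebi3: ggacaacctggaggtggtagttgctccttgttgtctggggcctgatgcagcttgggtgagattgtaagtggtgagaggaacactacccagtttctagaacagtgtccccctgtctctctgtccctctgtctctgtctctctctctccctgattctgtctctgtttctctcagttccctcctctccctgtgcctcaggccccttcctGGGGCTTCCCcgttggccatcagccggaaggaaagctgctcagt
Both strands were searched for the interferon-stimulated response element, the STAT site TTCNNNGAA, the AP-1 site TGANTCA and the kappaB consensus. These were found in 2.98%, 7.02%, 6.75% and 7.25% of 32851 promoter windows of this length. The Ebi3 window held a kappaB match, GGGGCTTCCC, 44 to 35 bases before the start. The Il12rb2 window held a STAT match, TTCTCAGAA, 123 to 115 bases before the start. The Il12b window and both Il12a windows held none of these letters, which says nothing of the factors themselves.

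The receptor chains of IL-12 differed little between labels. Il12rb1, which also serves the IL-23 receptor, lay between 6.10 and 7.31, with its highest values on untreated replicate 3, septic TLR-deficient replicate 1 and M10. Il12rb2, the chain through which IL-12 activates Stat4, stood at 6.20, 5.67, 5.07 and 5.48 on septic TLR-deficient arrays, at 5.49, 5.72, 5.09 and 5.51 on septic wildtype arrays and at 5.19, 5.91, 5.62 and 6.68 on untreated arrays. Its highest value was again on M16, and the next on M5. On M5 to M7 and M16 it spanned 1.61, as wide as over all 12 arrays.

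Septic wildtype spleens were set against untreated wildtype spleens to see how peritonitis alters expression with TLR signalling intact. Of the 10 genes, 9 had lower and 1 a higher mean on the arrays labelled septic wildtype, with a median log2 difference of -0.29 against 0.07 over all genes. None passed an adjusted p of 0.05 in limma (Benjamini-Hochberg over all genes), nor did any gene of the table (0%), and none had an unadjusted p under 0.05 where 8.81% of all genes did. The largest difference was that of Il10, at -1.08 (SE 0.87, 95% interval -2.95 to 0.79, adjusted p = 0.461), and it was -0.31 without untreated replicate 4. Il10ra had -0.86 (SE 0.49, adjusted p = 0.439) but -0.21 without septic wildtype replicate 2. Il12b had -0.60 (SE 0.45), and -0.15 without untreated replicate 4. For no member did the labelled groups stand apart, which they did in 6.42% of all genes.

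Both septic groups were set against each other to see how expression during peritonitis differs without TLR signalling. Here the TLR-deficient mean was higher for 8 of the 10 genes and lower for 2, with a median difference of 0.14 against -0.06 over all genes. Il10 had the largest, 2.46 (SE 0.87, 95% interval 0.59 to 4.33), with an unadjusted p of 0.0138 and an adjusted p of 0.590 in limma. It was the 1 member with an unadjusted p under 0.05, where 6.65% of all genes had one, and at an adjusted p under 0.05 there were 0 members and 0% of all genes. The value lay between 2.12 and 3.38 when single arrays were left out, the highest without septic TLR-deficient replicate 4. Il12b had 0.94 (SE 0.45, 95% interval -0.05 to 1.92, adjusted p = 0.590 in limma), and 0.52 without septic TLR-deficient replicate 2. It was the 1 member whose labelled groups did not overlap, the lowest TLR-deficient value being 4.92 and the highest septic wildtype value 4.72, and 3.80% of all genes did not overlap. Ebi3 had 0.44 (SE 0.27), and the other 7 members between -0.17 and 0.52, the last being Il10ra, which had -0.13 without septic wildtype replicate 2.

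Septic TLR-deficient and untreated wildtype mice differ in both genotype and sepsis. The difference was above 0 for 5 members and below 0 for 5, with a median of 0.00 against 0.01 over all genes. Il10 had 1.38 (SE 0.87, 95% interval -0.49 to 3.25, adjusted p = 1.0 in limma), and 2.30 without septic TLR-deficient replicate 4. No member and 0% of all genes passed, no member had an unadjusted p under 0.05 (1.88% of all genes), and no member's groups stood apart (3.40%). The 3 comparisons share groups, so their values are not independent of each other.

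**Figure D2:**
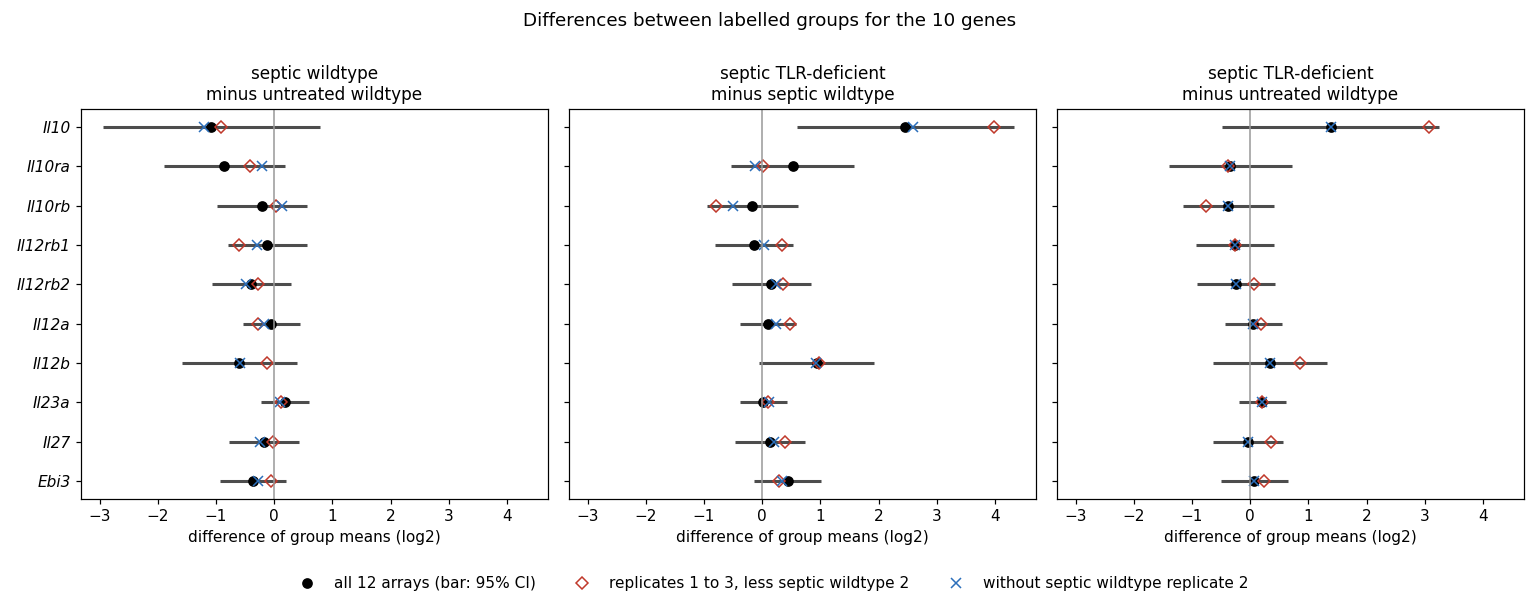
Difference of group means in log2 units (horizontal axis) for each gene (vertical axis) in the 3 comparisons; black points and bars are the values over all 12 arrays with 95% intervals, blue crosses leave out septic wildtype replicate 2, and red diamonds use replicates 1 to 3 without that array. The interval for Il10 between the septic groups, 0.59 to 4.33, is the only one that leaves out 0, and its red diamond stands at 3.98.

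Fits to replicates 1 to 3 of each label were added after the values had been seen. They drop replicate 4 of each label, the arrays that stand with another label, so they were chosen knowing the pattern of Il10, and passing the threshold in them is no test of the labelled groups. In the first, which keeps M10, the TLR-deficient mean of Il10 differed by 3.65 (SE 0.30) from septic wildtype, where 0.707% of all genes passed an adjusted p of 0.05 in limma, and by 3.07 (SE 0.30) from untreated wildtype, where 0.166% passed. In the second, without M10 as well, these differences were 3.98 (SE 0.18) and 3.07 (SE 0.16), where 5.03% and 3.39% of all genes passed. Il10 was past the threshold in all 4, and none of the other 9 members was in any. Between septic and untreated wildtype no member passed in either fit, where 0.0451% and 0.0953% of all genes did.

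Genes that IL-10 is known to induce in macrophages were read beside it. All 8 on the list were measured, and all 8 had lower means on septic wildtype than on untreated arrays, with a median of -1.28 against 0.07 over all genes. None passed an adjusted p of 0.05 and 7 had an unadjusted p under 0.05, where 8.81% of all genes had one. That count was 4 without septic wildtype replicate 2, where the median was -0.96 and 5.45% of all genes had such a p. Between the septic groups all 8 were higher on TLR-deficient arrays, with a median of 0.91. Here 0 had an adjusted and 4 an unadjusted p under 0.05, where 6.65% of all genes had the latter. Without septic wildtype replicate 2 that median was 0.55 and the count 2, where 6.20% of all genes had such a p. The lists were chosen with earlier results of these data known, so the shared direction is no independent evidence.

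Socs3, the feedback inhibitor that Stat3 induces, stood at 9.22, 9.63, 8.95 and 6.03 in the septic TLR-deficient group, at 6.18, 5.35, 6.43 and 7.59 in the septic wildtype group and at 7.76, 7.86, 8.16 and 9.61 in the untreated group. It was at 8.95 or more on the 4 arrays with high Il10, at 7.59 to 8.16 on M12 to M15 and at 6.43 or less on M8 to M11, so it separated the 3 title blocks. Its difference was -1.96 (SE 0.72, adjusted p = 0.439 in limma) between septic and untreated wildtype arrays and 2.07 (SE 0.72, adjusted p = 0.590 in limma) between the septic groups. Nfil3, a leucine zipper repressor, stood at 7.86 to 8.49, 6.56 to 7.13 and 5.40 to 6.26 on the same 3 blocks, again without overlap. Il1rn, the antagonist of the IL-1 receptor, stood at 8.71 to 10.11 on M5 to M7 and M16 and at 7.96 or less on the other arrays. Of the 8 genes, these 3 lay above the other 8 arrays on M5 to M7 and M16, as did 1.72% of all genes. The share of all genes that separate all 3 blocks was not counted, so the separation is not shown to be particular to these genes. Etv3, a repressor, differed by -1.05 (SE 0.40) and the IL-4 receptor chain Il4ra by -1.02 (SE 0.45) between septic and untreated wildtype arrays. Both were lowest on M10, and without it the differences were -0.60 (SE 0.28) and -0.42 (SE 0.19). Il4ra on M5 to M7 and M16 (9.59 to 9.90) overlapped M12 to M15 (9.59 to 9.89).

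Of the JAK-STAT genes below both cytokine systems, 7 of 8 were measured, and all 7 had lower means on septic wildtype than on untreated arrays (median -0.96 against 0.07 over all genes). Of them 0 had an adjusted and 3 an unadjusted p under 0.05, where 8.81% of all genes had the latter. Socs3 is counted both here and among the genes that IL-10 induces. Without septic wildtype replicate 2, 6 of the 7 JAK-STAT genes were lower, with a median of -0.50 against 0.02. Of them 2 had an unadjusted p under 0.05, where 5.45% of all genes did. Stat3, which IL-10 and IL-23 activate, stood at 10.19, 10.05, 9.47 and 8.99 on septic TLR-deficient arrays, between 7.56 and 9.46 on septic wildtype arrays and at 9.53, 9.62, 10.08 and 10.69 on untreated arrays. Jak2, a kinase of the IL-12 receptor, differed by -1.55 (SE 0.75), but this mean rests on the value of 4.84 on M10, since the other 11 arrays lay between 8.82 and 10.13. Without M10 it was -0.50 (SE 0.24). Jak1 likewise differed by -0.58 (SE 0.35) with and -0.11 (SE 0.14) without M10, and Tyk2, which serves both receptors, by -0.12 (SE 0.27) and 0.03 (SE 0.26). Between the septic groups 6 of the 7 genes were higher on TLR-deficient arrays (median 0.92 against -0.06), with 0 at an adjusted and 3 at an unadjusted p under 0.05, where 6.65% of all genes were. Without septic wildtype replicate 2 these were 5 genes, a median of 0.51 and 1 gene, where 6.20% of all genes were.

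Transcription factors that control these cytokines were lower on septic wildtype than on untreated arrays in 9 of 9 measured genes, with a median of -0.97 against 0.07 over all genes, or -0.40 against 0.02 without septic wildtype replicate 2. Of these, 0 had an adjusted and 3 an unadjusted p under 0.05, where 8.81% of all genes had the latter, and without that array 1 of 9 had it, where 5.45% of all genes did. Irf1, which interferon-gamma induces and which acts on Il12 genes, differed by -1.16 (SE 0.43), or -0.70 (SE 0.32) without that array, and the stress-induced factor Atf3 by -1.10 (SE 0.43). Maf, an activator of Il10, differed by -0.16 (SE 0.25) and Batf3, the factor of cross-presenting dendritic cells, by -0.06 (SE 0.19), and without that array by -0.06 (SE 0.25) and -0.02 (SE 0.17). Maf lay between 6.64 and 7.36 on M5 to M7 and M16, where Il10 was high, and between 7.12 and 7.86 on the other 8 arrays. On the former arrays 2 of the 9 lay above the rest, as did 1.72% of all genes. They were Nfkbiz (8.27 to 9.53 against 6.25 to 8.01) and, barely, Prdm1 (6.80 to 7.56 against 5.35 to 6.79). Between the septic groups 7 of 9 were higher on TLR-deficient arrays (median 0.46 against -0.06). Here 0 had an adjusted and 2 an unadjusted p under 0.05 in limma (6.65% of all genes). Without M10 it was 6 (median 0.11 against -0.01), with 1 higher and 1 lower gene at that p (6.20%).

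**Figure D3:**
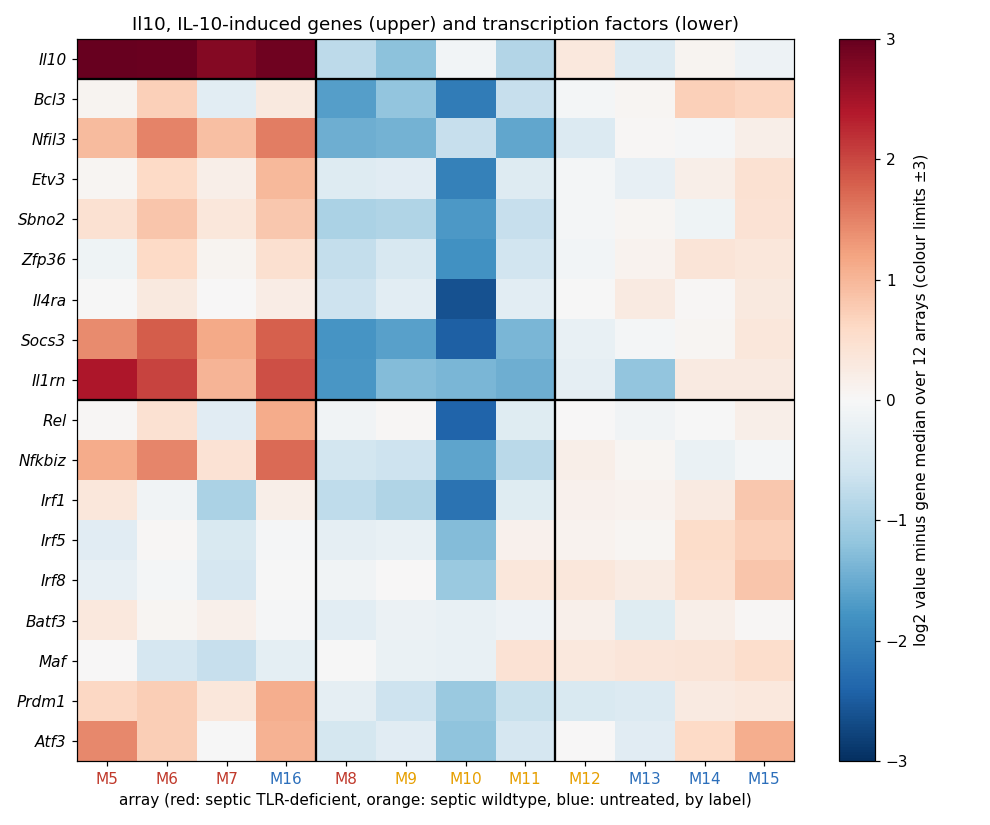
Log2 value minus the gene's median over the 12 arrays (colour, limits ±3) for Il10, 8 IL-10-induced genes and 9 transcription factors (rows) on the arrays in title-block order (columns, black lines between blocks, array names coloured by label). Il10, Socs3, Nfil3 and Il1rn are above their medians on M5, M6, M7 and M16.

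Genes that IL-12 induces in T and NK cells were read in the same way. Of 8 measured, 7 had lower means on septic wildtype than on untreated arrays (median -0.38 against 0.07 over all genes, or 6 and -0.16 without septic wildtype replicate 2), and 0 had an adjusted or unadjusted p under 0.05 in limma. Gzmb, a granule protease of cytotoxic cells, differed by -1.69 (SE 0.79, adjusted p = 0.439 in limma). It stood at 4.77 to 5.43 on M8 to M11 and at 7.21 to 8.16 on M5 to M7 and M16, while M12 to M15 ran from 5.32 to 8.23. Il18rap, a chain of the IL-18 receptor, differed by -0.39 (SE 0.26), the chemokine receptor Cxcr3 by -0.08 (SE 0.57) and the transcription factor Eomes by 0.05 (SE 0.39). Without M10 these were -0.18 (SE 0.21), 0.50 (SE 0.46) and -0.14 (SE 0.41). Ifng, the product of IL-12 signalling, lay between 4.83 and 6.23 on all arrays.

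In the IL-23 and IL-17 arm 3 of 5 genes were measured, and 0 of them had an adjusted or unadjusted p under 0.05 in any comparison in limma. Il17f, a cytokine of T cells that respond to IL-23, stood at 5.31, 5.61, 5.26 and 6.59 on M5, M6, M7 and M16 and between 4.74 and 5.20 on the other 8 arrays. M7 thus lay barely above M10, and in 1.72% of all genes these 4 arrays lay above the rest. Il17a had its highest value, 5.79, on 1 of the same 4 arrays. The other receptor chains of the family had differences of both signs: Il6st, which signals for IL-27, differed by -1.40 (SE 0.64) between septic and untreated wildtype arrays with its lowest value, 5.91, on M10, Il27ra by 0.14 (SE 0.47) and Il23r by 0.45 (SE 0.31). Without M10 these were -0.49 (SE 0.12), 0.55 (SE 0.42) and 0.08 (SE 0.17). By label, Il6st was higher on all untreated arrays (9.90 to 10.25) than on septic wildtype (5.91 to 9.59) and septic TLR-deficient arrays (9.33 to 9.66). Between septic and untreated wildtype arrays 6.42% of all genes did not overlap. There Il6st was the 1 gene of these 3 with an unadjusted p under 0.05 in limma, where 8.81% of all genes had one, and 0 had an adjusted one. Of the relatives of IL-10 and their receptors, 9 of 11 were measured, and 8 had higher means on septic wildtype than on untreated arrays, with a median of 0.34 (0.13 without septic wildtype replicate 2) and 0 at an adjusted or unadjusted p under 0.05 in limma. The differences named by the rule were 0.56 (SE 0.30) for Il24, 0.53 (SE 0.26) for Ifnl2, -0.03 (SE 0.19) for Ifnlr1 and 0.18 (SE 0.23) for the receptor chain Il20rb. Without M10, where Il24 and Ifnl2 were highest, they were 0.18 (SE 0.13), 0.29 (SE 0.20), -0.11 (SE 0.16) and 0.04 (SE 0.20).

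The genes most like Il10 over the 12 arrays, by Pearson's r, were Cxcl2 (0.979), Aoah (0.964), AA467197 (0.963), Il1a (0.962) and Pex11a (0.960). All 5 lay higher on M5 to M7 and M16 than on the other 8 arrays, so r here measures mainly that separation. Cxcl2 stood at 9.68 to 10.57 on these 4 arrays and at 4.52 to 6.50 on the others, and Il1a, an alarm cytokine, at 8.24 to 9.86 against 5.01 to 6.13. Aoah, which removes acyl chains from bacterial lipopolysaccharide, stood at 6.83 to 7.75 against 5.21 to 6.19. Without M10, Cxcl2 (0.982) and Il1a (0.975) stayed among the 5 most like Il10, joined by Sdc4, Ctla4 and Tnfaip3. For Il10ra the 5 were Slc35e1, Zdhhc18, Dgcr2, Scaf4 and 1810013L24Rik, at 0.980 to 0.986 over 12 arrays, and at 0.848 to 0.910 without M10.

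Means over the markers of 4 lymphoid and dendritic cell types were lower on the arrays where Il10 was high. The mean log2 level of 5 dendritic cell markers, all measured, lay between 5.72 and 5.97 on M5 to M7 and M16 and between 6.16 and 7.49 on the other 8 arrays. Only 2 of the 5 genes lay below the other arrays. Clec9a, a receptor of cross-presenting dendritic cells, stood at 3.98 to 4.51 against 5.55 to 8.03, and Xcr1, a marker of the same cells, at 4.37 to 4.59 against 5.37 to 7.43. Itgax, Flt3 and Zbtb46 overlapped, at 6.52 to 7.39, 7.20 to 7.88 and 5.92 to 6.32 against 5.80 to 8.38, 6.97 to 7.91 and 5.99 to 6.52. The 5 NK cell markers averaged 4.99 to 5.36 on M5 to M7 and M16 and 5.57 to 6.92 on the others without M10, which had 5.30. The 4 B cell markers measured averaged 7.67 to 7.95 against 9.50 to 10.45, and the 4 T cell markers 7.53 to 7.86 against 8.09 to 9.18, again without M10. The 5 macrophage markers averaged 8.76 to 9.34 and overlapped the other arrays. The part of these shifts in the levels of Il10 and its receptors was not tested, and in whole spleen fewer cells of a type and less RNA per cell cannot be told apart. By label the same means overlapped, as the dendritic cell markers ran from 5.72 to 7.49, 6.16 to 7.43 and 5.82 to 7.49 on septic TLR-deficient, septic wildtype and untreated arrays. Neutrophil (5.63 to 7.78 on M5 to M7 and M16) and monocyte markers (5.63 to 6.80) overlapped between these 4 arrays and the rest. Markers of the pancreas, which lies against the spleen, averaged 8.52 on M12 and 9.59 on M14, labelled septic wildtype and untreated, and 4.62 to 6.73 on the other 10 arrays. On M12 and M14 Il10 stood at 5.27 and 5.03, the highest values outside M5 to M7 and M16. M10 and M15 followed closely, at 4.88 and 4.81, with pancreas means of 5.71 and 4.66. Whether pancreas tissue bears on the level of Il10 was not tested.

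**Figure D4:**
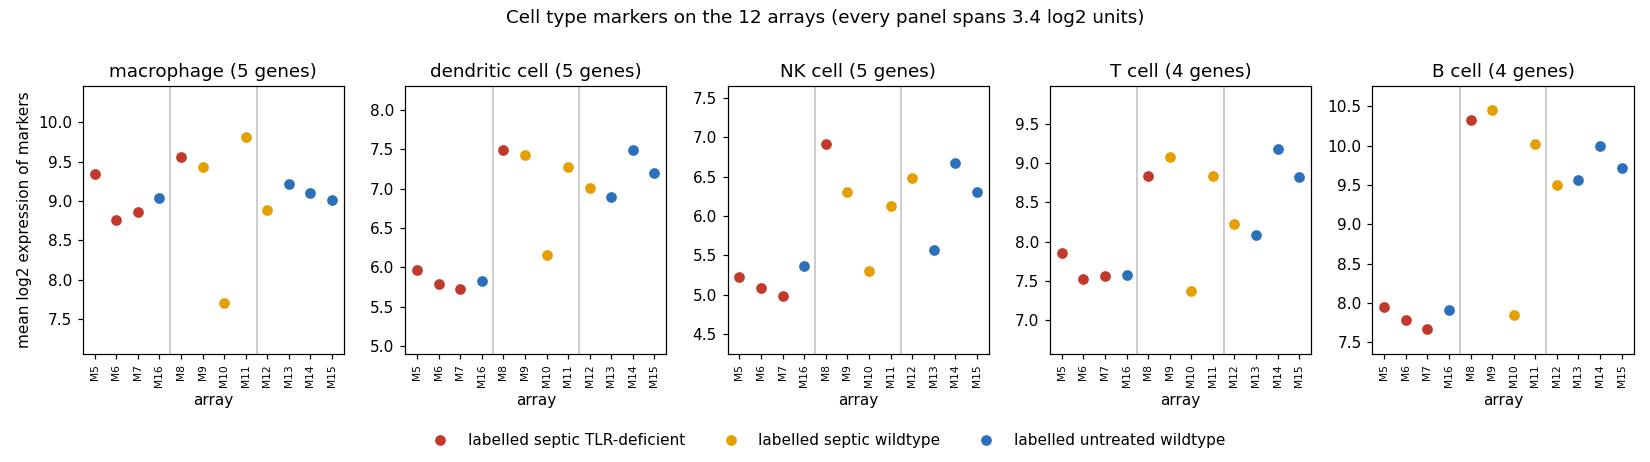
Mean log2 level of the markers measured for 5 cell types (vertical axis) on the 12 arrays in title-block order (horizontal axis); points are single arrays, coloured by label. Dendritic cell markers lie at 5.97 or lower on M5, M6, M7 and M16 and at 6.16 or higher elsewhere, while macrophage markers overlap.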

How the data were processed

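Total RNA from spleen was labelled with Affymetrix whole-transcript kits, per the labels' protocols. The deposited values are log2 expression per probe set, made with RMA in Affymetrix Expression Console per the submitters' processing notes, with versions not given in the sources used here. RMA as usually run corrects background, equalises the arrays' probe distributions and summarises probes. Over the 19938 genes kept as described below, array medians were 5.57 to 5.74, and the spread was narrower on M10. Whether the deposited values of all probe sets were equal in distribution was not examined. How M10 came to differ was not tested. Probe sets numbered 35557: 21789 with 1 gene symbol, 1621 with several and 12147 with none. Where a gene had several probe sets, the brightest on average was kept, giving 19938 genes, with no filter. All 12 arrays were used as labelled.

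Groups were compared in R 4.3.3 using limma 3.58.1, fitting 1 mean for each group to all arrays, moderated variances, two-sided, Benjamini-Hochberg adjustment over all genes, threshold 0.05. The fit was tested on simulated data with known changes in 1 group. There the noise was independent between arrays, its SD was capped at the median over genes, and no array stood apart. That check therefore does not show how often the fit would find a difference in these arrays. With 4 arrays per group, p-values set each difference against the spread between these samples within labels, which may be technical. That spread includes M10 and the arrays that stand with another label.

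The members, lists and tests were chosen with earlier results of these data known. All 10 members are named. From each list the 2 genes with the highest and the 2 with the lowest septic wildtype minus untreated difference are named, and for the 2 members varying most, the 5 genes with the highest Pearson's r. Other list genes, and markers, were named after their values were seen. Alternatives were a further quantile normalization, median centring, filters below percentiles 25 and 50, averaging the probe sets of each gene, fitting the compared groups alone, variances that were trended or robust, array weights, a replicate block and leaving out each array. List genes without a probe set of 1 matching symbol are not analysed here.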

Additional observations from a re-analysis of the deposited data

Results flagged for a closer look

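In 30 groups of 4 arrays (10 genes by 3 labels), 6 held an array far from the other 3 by Dixon's criterion at the 95% level, where chance gives about 5% of groups. Il10 gave 2 of them: septic TLR-deficient replicate 4 stood at 4.18 with the other 3 arrays of that label between 7.71 and 7.98, and untreated replicate 4 stood at 7.87 with the others between 4.55 and 5.03. These are the arrays titled M8 and M16. Over all genes the array closest to M8 was septic wildtype replicate 1, and the array closest to M16 was septic TLR-deficient replicate 1. Septic wildtype replicate 2 was low for both IL-10 receptor chains, at 5.98 for Il10ra (others 8.32 to 8.75) and at 8.15 for Il10rb (others 9.39 to 9.64). The same array had the narrowest distribution of log2 values of all 12. Il12a stood at 5.91 on untreated replicate 3 (others 6.31 to 6.37), and Ebi3 at 6.12 on untreated replicate 1 (others 6.85 to 6.97).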

How the results depend on the processing

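The number of genes passing in limma was 0 in each comparison and stayed 0 whichever single array was left out. It rose between septic and untreated wildtype to 1 with array weights (Smoc2), to 9 with replicates 1 to 3 and to 19 with replicates 1 to 3 less septic wildtype array 2. The last 2 alternatives, chosen after seeing the data, gave 141 and 1002 between the septic groups and 33 and 675 between septic TLR-deficient and untreated arrays. At an unadjusted p under 0.05 the counts over all arrays were 1756, 1325 and 375 genes in the order of the report. Under the same 2 alternatives Il10 passed, with 3.65 and 3.98 between the septic groups and 3.07 in both against untreated arrays. The replicate block left 0 genes and gave Il10 2.46 (adjusted p = 0.626 in limma) between the septic groups. Same-numbered arrays did not deviate together: correlations of their deviations from the group means ran from -0.54 to 0.14, with 2 of 12 pairs over 0.1, so the numbers were not taken as a pairing.

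Of 30 member differences, 13 kept their sign in all 23 alternatives, the 3 of Il10 among them, and 17 changed sign in at least 1. No member other than Il10 passed in any alternative. Between septic and untreated wildtype, a further quantile normalization gave 0.23 for Il10rb, 0.22 for Il12a, 0.24 for Il12rb1, -0.10 for Il23a and 0.12 for Il27. Array weights gave 0.04 for Il10rb, replicates 1 to 3 gave 0.08 for Il27, and these less septic wildtype array 2 gave 0.03 for Il10rb. Leaving out single arrays gave -0.37 to 0.13 for Il10rb, -0.18 to 0.14 for Il12a, -0.29 to 0.06 for Il12rb1 and -0.32 to 0.09 for Il27. Between the septic groups, quantile normalization gave -0.12 for Il12a and -0.08 for Il27, and array weights -0.02 for Il10ra and 0.17 for Il12rb1. Replicates 1 to 3 gave 0.04 for Il12rb1 and -0.01 for Il23a, and less septic wildtype array 2 0.34 for Il12rb1. Leaving out single arrays gave -0.13 to 0.80 for Il10ra, -0.51 to 0.06 for Il10rb, -0.10 to 0.23 for Il12a, -0.38 to 0.03 for Il12rb1, -0.04 to 0.33 for Il12rb2, -0.08 to 0.12 for Il23a and -0.03 to 0.27 for Il27. Between septic TLR-deficient and untreated arrays, Il27 had 0.03 with quantile normalization, 0.12 with array weights and 0.36 with replicates 1 to 3, with or without septic wildtype array 2, and Il12rb2 had 0.07 in both of the latter. Leaving out single arrays gave -0.06 to 0.15 for Il12a, -0.08 to 0.79 for Il12b, -0.46 to 0.03 for Il12rb2, -0.21 to 0.23 for Il27 and -0.13 to 0.19 for Ebi3. The cause of these changes was not tested. The filters at percentiles 25 and 50 leave out dim genes, so members below them have no value there. The files give no signal over background, so no level here is shown to lie above it.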

Other observations

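The pattern of Il12b, high on M6 and M16 alone, was compared with that of other genes after its values were seen. Over 12 arrays the most alike were Coq10b (Pearson's r 0.875), Klhl15 (0.866), Prickle1 (0.856), Pi4k2b (0.848) and Sh3bgrl2 (0.847). Without M10 none of these was among the 5 most alike, which were Tpbg (0.934), Rcan1 (0.903), Sipa1l1 (0.890), Sgk3 (0.885) and Cd86 (0.884). Cd86, a costimulatory molecule of antigen-presenting cells, stood at 9.25 to 9.89 on M5 to M7 and M16 and at 7.40 to 9.24 on the other 8 arrays.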
